A study of Canis lupus familiaris with 13 samples.

Results

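The transcripts described here are those that 8 non-metastatic soft tissue sarcomas of dogs carried in common at high levels, and those in which the same 8 tumours differed most from each other. Probe sets, each a group of short probes that reads 1 transcript on the array, were ranked over the 8 tumours alone. The first set held the 300 probe sets with the highest mean log2 intensity, and the second held the 300 with the largest standard deviation (SD) among probe sets with a mean of at least 8. Both sets were drawn from 29254 probe sets, of 15115 genes, that carried a single gene symbol, out of 43035 in all. The first set covered 236 genes and the second 232 genes. Members were chosen by their means and SDs over these 8 tumours, so these values are given as a description without a test.

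The series held biopsies of 13 primary tumours, of which 8 were labelled non-metastatic, meaning no metastasis over at least 1 year, and carried the names NM1 to NM8. The remaining tumours, from dogs with metastasis, were not used here. All tumours were untreated, and the labels give total RNA and biotin labelling by 1 cycle of 3′ in vitro transcription. The labels give no breed, age, tumour site, histological type or share of tumour cells, and leave unsaid whether each tumour is from a different dog. Values were read as log2 intensities, so a difference of 1 is a doubling of signal.

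Soft tissue sarcomas are malignant tumours of connective tissue, the tissue in which fibroblasts and related mesenchymal cells lay down collagen fibres, proteoglycans and elastic fibres. Collagen chains are folded and modified in the endoplasmic reticulum, trimmed and crosslinked outside the cell, and spaced by small proteoglycans such as decorin and lumican. Fibroblasts of different body sites and states share the fibrillar collagens but differ in the smaller matrix proteins, secreted factors and receptors that they make.

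Markers of several cell types were compared with the level seen in probe sets without target. All 10 fibroblast and mesenchymal markers had a mean above 7.16, the lowest being that of PDGFRA at 8.865. In all 8 tumours 9 of them lay above 7.16, the exception being lumican (LUM). That level is the highest value that 36 spike-in probe sets gave in the arrays without their target. Their values there ran from 2.63 to 7.16 with a median of 4.45. Of 6 measured epithelial markers, the tight junction gene CLDN3 had a mean above it. The adhesion genes EPCAM (3.84 to 7.0) and CDH1 (4.54 to 5.76) and the junction gene CLDN7 (5.26 to 6.33) stayed below it in every tumour. The keratin KRT8 ran from 3.08 to 8.84 and exceeded it in 2 tumours, and its partner KRT18 ran from 5.73 to 7.53 and exceeded it in 1. Among markers of other cells, 8 of 9 macrophage markers and 5 of 5 endothelial markers had means above 7.16. For T and NK cells 3 of 6 did, and for B and plasma cells 1 of 4. Over all 15115 named genes, each at its brightest probe set, the median of the means was 7.33. A mean above 7.16 is therefore common and by itself shows little about which cells were present. Of 7 skeletal muscle markers, 2 had a mean above 7.16 and 0 lay above it in all 8 tumours. In biopsies of mixed cells, fewer cells of a type and less RNA per cell cannot be told apart.

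The arrays were not alike in their controls. Poly-A spike-ins, bacterial transcripts added to RNA before labelling, gave no signal in NM1, NM3 and NM4, whose 3′ spike-in probe sets averaged 4.48 to 4.95, against 8.25 to 9.02 in NM5 to NM8. In NM2 the spike-in signal was truncated, with 8.66 at the 3′ end and a 3′ minus 5′ difference of 3.54, against 0.742 to 0.922 in NM5 to NM8. The 3′ minus 5′ difference of the ACTB control was also largest in NM2, at 3.14, and ran from 0.39 to 0.88 in NM1, NM3 and NM4 and from 1.23 to 2.24 in NM5 to NM8. Median intensities of the 8 arrays lay between 6.71 and 6.94.

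**Figure D1:**
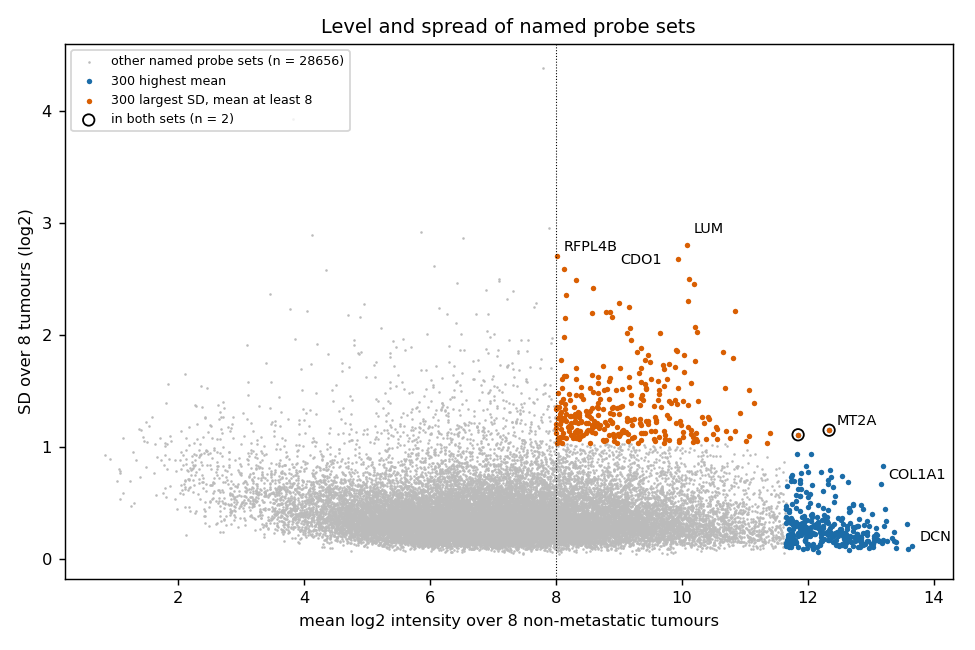
Mean (horizontal axis) and SD (vertical axis) of log2 intensity over 8 non-metastatic tumours, 1 point for each of the 29254 named probe sets. The 300 with the highest mean (blue) had a median SD of 0.236, and the 300 most variable (orange) had SDs of 1.03 to 2.80; 2 probe sets, circled, belonged to both sets.

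The highest signals came from connective tissue matrix, the cytoskeleton and the protein synthesis machinery, and most of them were nearly level across the tumours. Means of the first set ran from 11.65 to 13.65 with a median of 12.22. The median SD over the 8 tumours was 0.236, and 263 of the 300 had an SD under 0.5. The range between the lowest and the highest tumour was under 1 for 214 of the 300 (71.3%), against 51.0% of all named probe sets with a mean of at least 8. Only MT2A, a metal-binding metallothionein, and SFRP2, a secreted Wnt antagonist, had an SD of 1 or more. Probes differ in how strongly they bind, so the order of means is an order of probe set signals and not of transcript amounts.

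Decorin (DCN), the small proteoglycan that binds collagen fibrils, had the highest mean of all, 13.65 ± 0.11 (SD, n = 8), with a lowest, median and highest value of 13.47, 13.70 and 13.76. Vimentin (VIM), the intermediate filament of mesenchymal cells, followed at 13.60 ± 0.08 (SD, n = 8), between 13.44 and 13.70. Both lie near the top of the scale, since the highest value of each array was 13.71 to 14.09 and DCN was itself the highest named value in NM3, NM4 and NM8. Whether differences between tumours are compressed at this level was not tested.

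Fibrillar collagens were as bright but less even. COL1A2, a chain of type I collagen, averaged 13.57 ± 0.31 (SD, n = 8), and COL3A1, of type III collagen, averaged 13.22 ± 0.45. COL1A1, the partner chain of COL1A2, averaged 13.16 ± 0.66. Its values were 13.51 in NM1, 14.04 in NM2, 13.06 in NM3, 13.17 in NM4, 13.59 in NM5, 13.52 in NM6, 12.05 in NM7 and 12.37 in NM8. At these brightest probe sets NM2 was the highest and NM7 the lowest for all these chains. At weaker COL1A1 probe sets of the first set NM8 was the lowest, at 12.54 and 11.28, against 12.56 and 11.57 in NM7. Their SDs were 0.301 and 0.698. Some probe sets outside the first set were highest in NM4 for COL1A2 and in NM5 for COL3A1. Of 16 measured collagen genes, 7 were in the first set, the others being COL5A2, COL4A2, COL4A1 and COL6A1 at means of 11.88 to 12.15. Among all named genes the share in the set was 1.56%, against 43.8% of the collagens, which were listed knowing that matrix genes were prominent in these data.

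Proteins that organise and process this matrix were part of the same set. Of 32 measured genes of matrix glycoproteins and elastic fibres, 8 were in it, led by SPARC, a collagen-binding glycoprotein, at 13.25 ± 0.34 (SD, n = 8). FBN1, the main fibrillin of microfibrils, averaged 12.96 ± 0.16 at its brightest probe set, and fibronectin (FN1) averaged 12.80 ± 0.29. Proteases and inhibitors numbered 4 of 25, among them CTSK, a collagen-degrading cathepsin, at 12.72 ± 0.25. MMP2, a gelatinase, averaged 12.64 ± 0.69 and had a lowest, median and highest value of 11.15, 12.95 and 13.29. The lowest value was that of NM7, which was also the lowest tumour for CXCL12, CLEC3B, FAP and HTRA1.

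These last 4 genes are products of fibroblasts and other stromal cells. CXCL12, a chemokine, lay at 9.83 in NM7 and between 12.11 and 12.86 in the other 7 tumours. CLEC3B, the gene of tetranectin, a secreted protein that binds plasminogen, ran from 11.39 in NM7 to 13.24 in NM3 with a median of 12.41. FAP, a membrane protease of activated fibroblasts, ran from 10.87 to 12.41 with a median of 12.05. HTRA1, a secreted serine protease, ran from 11.14 to 12.94 with a median of 12.61. Of the 10 fibroblast and mesenchymal markers, each at its brightest probe set, COL1A1, COL1A2, COL3A1, THY1 and FAP were lowest in NM7. VIM, PDGFRA, PDGFRB, DCN and LUM were not, with PDGFRA at 9.29 in NM7 and between 7.59 and 9.99 over the 8 tumours. NM7 was the lowest tumour for 102 of the 300 probe sets of the first set and the highest for 72 of them. Among all named probe sets with a mean of at least 8, it was the lowest for 12.9% and the highest for 17.4%.

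Protein synthesis genes were numerous and even across the tumours. Of 53 measured cytosolic ribosomal proteins, 45 (84.9%) were in the first set and 0 were in the variable set. RPL9 averaged 13.40 ± 0.15 (SD, n = 8), RPS26 averaged 13.39 ± 0.10, RPL10A averaged 13.18 ± 0.14 and RPL32 averaged 13.13 ± 0.16. The 50 ribosomal genes with a mean of at least 8 had a median SD of 0.207, against 0.319 for all 5399 genes at that level. Translation factors contributed 10 of 31, headed by the elongation factor EEF1A1 at 13.34 ± 0.18. Processed copies of ribosomal genes are common in mammalian genomes, and probes of such families can bind more than 1 transcript. Names of the form LOC, given to gene models without a standard name, accounted for 23 genes of the set, including LOC607874, LOC609896 and LOC475080 among the 20 brightest.

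The actin cytoskeleton and calcium-binding proteins of the cell periphery were also well represented. Of 33 measured cytoskeleton genes, 13 were in the set, with GSN, which severs actin filaments, at 13.36 ± 0.24 (SD, n = 8), TMSB10, a thymosin that binds actin monomers, at 13.19 ± 0.17 and the cytoplasmic actin ACTG1 at 13.02 ± 0.11. Of 22 S100 proteins, annexins and galectins, 8 were in it, led by S100A6 at 13.21 ± 0.29, S100A10 at 13.08 ± 0.22 and its partner ANXA2 at 13.03 ± 0.13. S100A6 was 12.54 in NM7 and at least 13.16 elsewhere. The probe sets named ACTB and GAPDH on this array, both usually abundant, averaged 6.19 and 5.50. The array also carries control probe sets for these genes, which the ranking left out.

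Secretory, degradative and energy genes were present with fewer of their members. Endoplasmic reticulum folding genes numbered 7 of 31, with PPIB, a cyclophilin that helps collagen fold, at 12.32 ± 0.17 (SD, n = 8), HSPA5, the main chaperone of this compartment, at 12.26 ± 0.39 and P4HB, a subunit of prolyl 4-hydroxylase, at 12.26 ± 0.18. Cytosolic chaperones numbered 5 of 18 and lysosomal or iron storage genes 6 of 22, the latter headed by ferritin light chain (FTL) at 12.62 ± 0.29. Glycolysis contributed 3 of 18, namely ENO1, PGAM1 and LDHA. Oxidative phosphorylation contributed 3 of 54, of which UQCRH, a subunit of complex III, had the smallest SD of the whole set at 12.15 ± 0.06. The proteasome and ubiquitin list contributed UBB, which encodes ubiquitin, at 13.37 ± 0.15, and SKP1.

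Immune genes in the first set belonged to antigen presentation and complement. B2M, the light chain of MHC class I, averaged 12.87 ± 0.44 (SD, n = 8), from 12.18 in NM1 to 13.54 in NM7, and the dog class I gene DLA88 averaged 11.88 ± 0.56. The class II genes DLA-DRA and HLA-DRB1, as the annotation names them, averaged 12.03 ± 0.50 and 11.89 ± 0.63. Complement contributed C1S, a protease of the classical pathway, and CFD, the protease of the alternative pathway that fat cells also secrete. No gene of the T and NK cell, B and plasma cell, macrophage, mast cell, skeletal muscle, cell cycle or HOX lists was among the 300. The leukocyte gene PTPRC averaged 7.20 ± 0.17 and lay between 7.03 and 7.45.

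**Figure D2:**
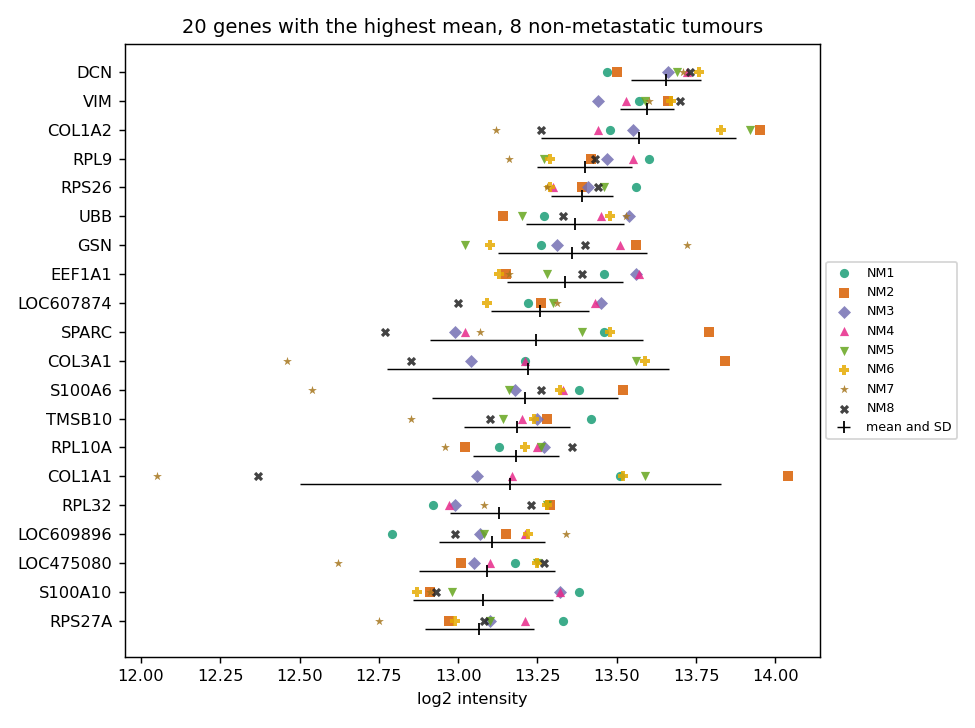
Log2 intensity (horizontal axis) of the 20 genes with the highest mean, each at its brightest probe set, with 1 symbol for each of the 8 non-metastatic tumours and the mean and SD as a bar beneath. DCN and VIM spanned 0.29 and 0.26, whereas COL1A1 ran from 12.05 in NM7 to 14.04 in NM2.

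At the lower threshold of the first set, MYH9, a non-muscle myosin, and SPTAN1, a spectrin, were the last members inside, with means of 11.65. POSTN, a matrix protein of fibroblasts, was just outside at the same rounded mean, followed by the ribosomal protein gene RPL12. Membership near this threshold therefore rested on differences far smaller than the SD.

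Samples with and without spike-in signal were compared for the first set, since its rule used only the mean over all 8 tumours. Between NM1, NM3 and NM4 without signal and NM5 to NM8 with it, NM2 left out, 21.7% of 42924 probe sets differed in limma at an adjusted p under 0.05. Of those called, 27.0% were higher without signal, and after quantile normalization 47.9% of 7967 were. In the first set 27 of 300 (9.0%) differed, 23 higher and 4 lower without spike-in signal. Over all probe sets tested, 5.85% were called higher and 15.8% lower.

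At its brightest probe set S100A10 was 0.42 ± 0.10 (SE) higher without spike-in signal (limma adjusted p = 0.0246), at a mean of 13.34 against 12.92. A similarly bright probe set of the gene gave 0.38 (limma adjusted p = 0.0351). Weaker ones in the first set gave 0.006 and -0.515 (limma adjusted p = 0.973 and 0.414). A less bright probe set of TMSB10 was 0.87 ± 0.14 (SE) higher (limma adjusted p = 0.00695). The brightest TMSB10 probe set was 0.21 ± 0.13 (SE) higher (limma adjusted p = 0.29). The 4 lower probe sets, named for that count, were those of the phospholipid-binding annexin ANXA5 (-0.45), the transcriptional regulator TSC22D1 (-0.55), IGFBP7 (-1.12), a secreted protein related to the insulin-like growth factor binding proteins, and the prion protein gene PRNP (-1.17). How far the tumours themselves differed between these arrays cannot be told apart from the difference in preparation. The number of probe sets called fell from 9311 to 5830 without NM1, 5646 without NM3, 5788 without NM5 and 5317 without NM6. With the ACTB 3′ minus 5′ difference as a covariate limma called 0, with 6168 at an unadjusted p under 0.05.

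The second set held the genes in which the tumours differed most. SDs ran from 1.03 to 2.80 with a median of 1.26, and the range between the lowest and highest tumour had a median of 3.79. It was at least 4 for 118 probe sets and at least 6 for 19. The lowest tumour was at or below 7.16 for 181 of the 300, so the full size of these ranges is not exact. NM2 was the lowest tumour for 115 of the 300 (38.3%), whereas it was the lowest for 29.7% of all named probe sets with a mean of at least 8. NM3 was the highest for 68 (22.7%), NM2 for 61 (20.3%) and NM7 for 58 (19.3%), against 16.7%, 16.2% and 17.4% of all named probe sets at that mean, so the shares of NM2 and NM7 lay near the background. NM1 was the highest for 23 (7.67%) against 16.8%, and the other 4 tumours for 19 to 25.

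One tumour stood apart from the other 7, with a gap to its nearest neighbour above Dixon's critical share of the whole range, in 56 of the 300 (18.7%), against 8.35% of named probe sets with a mean of at least 8. In 34 of them it was NM2 on the low side, and in 10 it was NM7 on the high side. Among the 712 such cases over all named probe sets with a mean of at least 8, these numbered 330 and 59. A tumour that stands apart also raises the SD by which members were chosen, so nothing is read from these counts. When NM2 was left out, 204 of the 300 stayed among the 300 most variable. Of the 96 that left, 66 had been lowest in NM2. When only NM5 to NM8 were used, 148 stayed. NM2 is also the only array with a truncated spike-in, and the part of that truncation in these counts was not tested.

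Lumican (LUM), a small proteoglycan that regulates collagen fibril assembly, had the largest SD of all, 2.80 around a mean of 10.07 (n = 8). It was 10.03 in NM1, 12.76 in NM2, 4.13 in NM3, 11.72 in NM4, 12.17 in NM5, 9.10 in NM6, 11.77 in NM7 and 8.91 in NM8. NM3 stood far below every other tumour, although its decorin level of 13.66 was close to the mean. CXCL14, a chemokine of skin and fibroblasts, had a similar order, from 6.08 in NM3 and 7.15 in NM1 to 12.58 in NM7 (median 10.85).

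RFPL4B, a RING finger family gene, had the next largest SD, 2.70 (mean 8.01, n = 8). It was 11.28 in NM1, 11.80 in NM6 and 9.71 in NM8, but 3.88 in NM2 and between 6.39 and 7.49 in the remaining 4 tumours. CDO1, a cysteine dioxygenase, ran from 4.78 in NM3 to 12.67 in NM5 with a median of 10.38 and an SD of 2.68. It was also high in NM6 (12.25) and NM8 (12.11). All 3 genes therefore sorted the tumours differently.

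Other genes divided the tumours into high and low sides without values between. At 1 probe set of GATD3A, a gene of the glutamine amidotransferase family, 5 tumours lay between 9.28 and 10.71 and NM1, NM2 and NM7 between 4.61 and 5.36. The 3 other GATD3A probe sets with a mean of at least 8 did not show this split, with SDs of 0.174, 0.235 and 0.312. DPEP1, a membrane dipeptidase, lay between 5.24 and 5.65 in NM2, NM5 and NM7 and between 9.21 and 11.13 in the other 5. LOC480601 lay between 6.87 and 7.53 in NM1, NM6 and NM7 and between 11.10 and 13.14 in the rest. Tenomodulin (TNMD), a membrane glycoprotein of tendon and ligament, lay between 5.18 and 6.21 in NM6, NM7 and NM8 and between 9.33 and 11.66 in the rest.

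**Figure D3:**
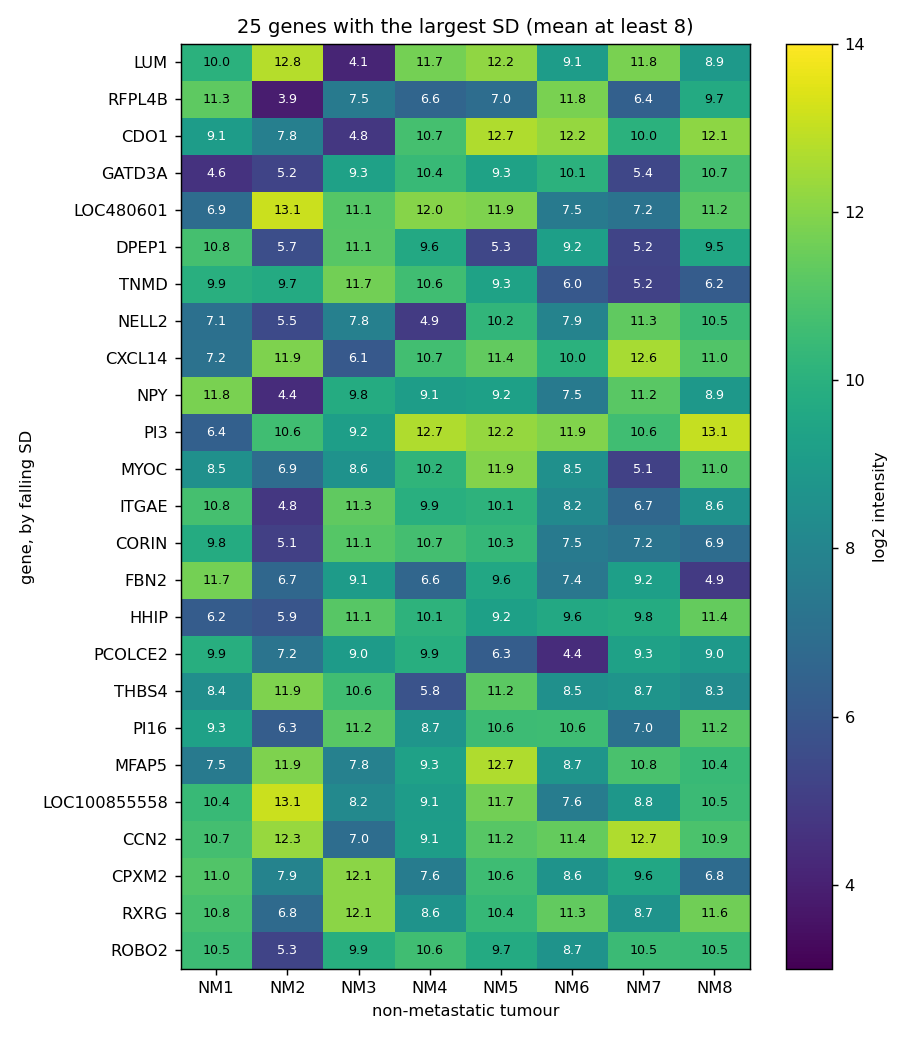
Log2 intensity of the 25 genes with the largest SD (rows, by falling SD, each at its most variable probe set with a mean of at least 8) in the 8 non-metastatic tumours (columns), with the value printed in each cell. Low cells fall in different tumours from row to row, as for LUM in NM3 (4.1) and RFPL4B and NPY in NM2 (3.9 and 4.4).

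Neuropeptide Y (NPY), a transmitter of neurons, was 4.39 in NM2 and ran from 7.55 to 11.79 elsewhere. NELL2, a secreted protein of neurons, ran from 4.90 in NM4 to 11.32 in NM7 (median 7.86). ROBO2, a receptor for the guidance factor Slit, was 5.26 in NM2 and between 8.67 and 10.63 elsewhere, so that its SD of 1.82 fell to 0.701 without NM2.

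PI3, the elastase inhibitor elafin, ran from 6.36 in NM1 to 13.05 in NM8 (median 11.27). HHIP, which binds and restrains hedgehog ligands, was 6.18 in NM1 and 5.92 in NM2 and between 9.25 and 11.38 elsewhere. PI16, a peptidase inhibitor of fibroblasts, ran from 6.26 in NM2 to 11.19 in NM3, and the retinoid receptor RXRG from 6.82 in NM2 to 12.07 in NM3. MYOC (myocilin), the integrin subunit ITGAE, the protease CORIN, the carboxypeptidase family member CPXM2, the growth factor CCN2 and LOC100855558 had ranges between 5.26 and 6.83.

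Matrix genes gave the highest count of any list in the second set. Of 32 measured genes of matrix glycoproteins and elastic fibres, 11 (34.4%) were in it, against 1.53% of all named genes. Only genes with a mean of at least 8 could enter, which 26 of the 32 had. Of all 15115 named genes 5399 had such a mean, and 232 of these were in the set, so the 1.53% makes the contrast look larger. Without NM2 there were 8, and with NM5 to NM8 alone there were 5. FBN2, the second fibrillin, ran from 4.89 in NM8 to 11.70 in NM1. THBS4, a thrombospondin of tendon and muscle, ran from 5.81 in NM4 to 11.86 in NM2. MFAP5, a microfibril protein, ran from 7.52 in NM1 to 12.67 in NM5.

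The remaining matrix genes followed no common order of tumours. THBS2, another thrombospondin, was 7.22 in NM7 and 7.11 in NM8 and at least 8.84 elsewhere. COMP, a pentameric thrombospondin of cartilage and tendon, was 12.04 in NM2 and between 8.07 and 8.47 in the other 7 tumours, where its SD was 0.147. SPARCL1, a relative of SPARC, was 7.82 in NM1, 8.07 in NM3 and 8.81 in NM4, and between 9.94 and 11.92 in the other 5 tumours. The elastic fibre genes FBLN5, FBLN1, MFAP4 and EFEMP1 and a weaker probe set of FBN1 completed the group.

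Proteoglycans other than decorin varied as well, with 4 of 20 in the second set and 1 in the first. GPC3, a cell surface glypican, was 6.65 in NM2 and between 8.22 and 11.01 elsewhere. Asporin (ASPN) was lowest in NM7 at 7.09, and osteomodulin (OMD) was lowest in NM3 at 5.91. Collagens contributed COL14A1 and COL15A1, both highest in NM2 at 10.71 and 10.27. The crosslinking and processing enzymes LOXL2, a lysyl oxidase, and P4HA2, a prolyl 4-hydroxylase subunit, were also highest in NM2, at 11.96 and 10.72. PCOLCE2, an enhancer of procollagen cleavage, was 4.39 in NM6, 6.26 in NM5 and between 7.22 and 9.91 elsewhere at its most variable probe set. Its brightest probe set did not show this, lying between 9.56 and 9.96 in all 8 tumours (r = 0.278 with the variable one). Probe sets of the gene with lower means, 7.53 and 7.01, did show it. They were 3.79 and 4.14 in NM6, 5.98 and 5.63 in NM5, and at least 6.91 and 6.84 elsewhere. Collagen list members fell to 1 without NM3 or without NM8, and enzyme list members fell from 3 to 1 without NM4.

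Of 25 measured interferon-induced genes, 5 were in the second set, namely ISG15, a ubiquitin-like modifier, IFI44L, the antiviral GTPase MX1, IFI6 and the oligoadenylate synthetase OAS1. ISG15 was 11.84 in NM7, 10.40 in NM3 and between 7.08 and 9.05 in the other 6 tumours. MX1 was likewise 11.84 in NM7, 10.44 in NM3 and between 6.93 and 9.16 elsewhere. All 5 were highest in NM7, and all but IFI6 were next highest in NM3. IFI6 was 11.56 in NM7 and between 7.41 and 8.26 in the other 7. Each at its brightest probe set, 23 of the 25 genes were highest in NM7, and 18 of the 20 outside the second set, against 14.8% of all named genes. Without NM7 the list had 3 members among the 300 most variable.

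The second set held 3 of 24 endothelial and 3 of 20 smooth muscle and pericyte genes, and these were highest in NM2. The endothelial genes PECAM1, an adhesion receptor, VWF, the clotting factor carrier of endothelium, and the water channel AQP1 were 11.42, 11.33 and 12.01 in NM2. In the other 7 tumours they lay between 7.33 and 9.90, between 7.23 and 9.28 and between 7.72 and 9.54. The smooth muscle actin ACTA2 and the pericyte adhesion molecule MCAM were 12.71 and 10.19 in NM2, and a further smooth muscle actin, ACTG2, was highest there too. ACTA2 lay between 8.95 and 11.34 elsewhere. Each at its brightest probe set, 15 of the 21 endothelial genes and 8 of the 17 smooth muscle and pericyte genes outside the second set were also highest in NM2, against 32.9% of all named genes. The muscle intermediate filament DES went another way, at 8.26 in NM2 and 8.89 in NM7, its highest tumour. Without NM2, both lists fell from 3 members to 1, while the fibroblast list rose from 4 to 7 and the macrophage list from 2 to 6.

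The averages of the marker lists contain some of these genes. Over 5 endothelial markers, PECAM1 and VWF among them, the level was highest in NM2 at 9.96 and lowest in NM1 at 7.59. Over the 3 of them outside the second set it was 9.02 in NM2 and 7.45 in NM1. Over 7 smooth muscle and pericyte markers the average was highest in NM2 at 8.28 and lowest in NM3 at 6.94, and without ACTA2 it was 7.55 and 6.61. Of the remaining 6, the smooth muscle myosin MYH11 alone was highest in NM2, at 10.29 against 6.66 to 7.96 elsewhere.

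Markers of other cells were also highest in NM2. The keratinocyte average, of KRT1 and KRT10, was 8.35 there and lowest in NM3 at 5.47. KRT1 was 8.54 in NM2 and between 5.04 and 5.57 elsewhere, and KRT10 was 8.16 and between 5.91 and 6.18. The averaged adipocyte markers reached 7.65 in NM2, and the single erythroid marker measured, ALAS2, reached 7.5. The epithelial, B and plasma cell, skeletal muscle, melanocyte and cartilage averages were highest in NM2 as well, between 6.13 and 7.01, below the level of 7.16. The part of cell content and of array preparation in these values was not tested. DES averaged 8.42 ± 0.22 (SD, n = 8), and PDGFRB, a receptor of pericytes and fibroblasts, averaged 9.01 ± 0.42.

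Nerve-related genes contributed 4 of 21 to the second set. Besides NPY these were the neurofilament NEFH, the deubiquitinase UCHL1 and the growth cone protein GAP43, all 3 highest in NM7 at 10.46, 10.85 and 11.78. Without NM7 the list had 1 member in the set. SOX10, which marks Schwann cells and melanocytes, averaged 7.58 ± 0.21 (SD, n = 8) and lay between 7.27 and 7.84, so the tumours were nearly level in it.

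Growth factor receptors and their partners showed several patterns. FGFR2, a fibroblast growth factor receptor, was 5.85 in NM2 and between 9.19 and 11.39 elsewhere. EPHA3, an ephrin receptor, was 5.69 in NM2 and 7.20 in NM7, with a median of 9.44. NTRK2, the receptor of brain-derived neurotrophic factor, was 9.34 in NM2, 10.22 in NM5 and 10.38 in NM7 and between 6.57 and 7.43 in the other 5 tumours. IGF1, insulin-like growth factor 1, ran from 7.02 in NM6 to 11.72 in NM7 (median 10.01).

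Chemokine, complement and early response genes each contributed 3. CCL19, which draws T and dendritic cells, was 11.48 in NM1, 10.70 in NM3 and 10.61 in NM4 and between 7.37 and 9.24 in the other 5 tumours. Clusterin (CLU), a complement inhibitor, ran from 7.61 in NM8 to 12.27 in NM2, complement factor CFI from 7.32 to 10.75 and C3, the central complement protein, from 7.20 in NM3 to 10.56 in NM2. The early response factor FOS was 10.81 in NM4 and between 6.84 and 8.96 elsewhere, and NR4A1 was highest in NM2 at 10.17. Without NM2 the complement list had 5 members in the set. The Wnt and BMP antagonists SFRP2, CHRDL1 and FSTL1 were members, and without NM2 that list had 1.

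No ribosomal, translation, oxidative phosphorylation, proteasome, lysosomal, endoplasmic reticulum folding, S100 and annexin, T and NK cell, B cell, cell cycle or HOX list gene was among the 300 most variable. Most T and B cell genes could not have been, since only 4 of 24 and 3 of 11 had a mean of at least 8. Of the 29 measured cell cycle genes 9 had such a mean, with a median SD of 0.487, and all 54 oxidative phosphorylation genes had one, with a median SD of 0.251. The keratin KRT7, of simple epithelia, was a member and ran from 7.99 in NM2 to 12.15 in NM4. The melanocyte factor MITF ran from 7.18 in NM2 to 9.99 in NM5. Of the 4 melanocyte markers, the melanosome gene PMEL lay between 8.91 and 9.36, above 7.16 in all 8 tumours, whereas TYR (3.90 to 4.93), DCT (3.32 to 4.60) and MLANA (4.50 to 6.46) lay below it in every tumour.

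Other probe sets of the same genes mostly repeated the pattern of the variable ones. Among 238 pairs of a variable probe set and another of the same gene with a mean of at least 8, from 132 genes, the median Pearson r over the 8 tumours was 0.966. It was at least 0.9 in 181 pairs and under 0.5 in 20. The other LUM probe set had r = 0.974, and those of CDO1 had r of 0.983 to 0.994. Probe sets of a gene share the sample and may share sequence, so these are descriptions of the measurement.

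The genes most like the 3 most variable ones were found by Pearson r over the 8 tumours within the second set. LUM was most like CXCL14 (0.851), the LIM protein PDLIM1 (0.793), MT2A (0.768), CCN2 (0.758) and C3 (0.718). RFPL4B was most like JAKMIP2 (0.894), the water channel AQP8 (0.796), podoplanin (PDPN, 0.790), the actin-binding protein AVIL (0.761) and RXRG (0.760). CDO1 was most like the metallothionein MT1E (0.941), the lipid transporter ABCA9 (0.904), OMD (0.871), CALCRL (0.850), a receptor of adrenomedullin, and MT2A (0.827). The points are 8 tumours that also differ in array preparation, so the correlations only describe these samples.

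In the second set, 55 of 300 (18.3%) differed between samples without and with spike-in signal, 29 higher and 26 lower without it, against 21.7% of all probe sets. The sides did not overlap for 66 of the 300 (22.0%), against 31.6% of named probe sets with a mean of at least 8. These members were chosen for their spread over the same tumours, so nothing is read from these counts. CCL19 and SPARCL1 are examples of opposite direction, with means of 10.93 against 8.58 and of 8.23 against 10.95 without and with spike-in signal.

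A separate feature of NM2 appeared in genes with probe sets in both sets. There were 16 such genes, of which 15 had different probe sets in the 2 sets. The probe set in the first set had the smaller SD in all 15, from 0.161 in FBN1 to 1.106 in SFRP2, whose bright probe set was itself also in the second set. The rules by which the probe sets were picked fix this order of SDs, so nothing is read from it. MBNL1, a splicing regulator, was 11.78 in NM2 and between 11.96 and 12.69 elsewhere at its bright probe set, but 5.61 in NM2 at its variable one. NM2 minus the median of the other tumours was -0.34 at the first and -3.78 at the second. SEPTIN7, a cytoskeletal GTPase, had differences of 0.01 at the bright probe set and -2.53 at the variable one. FBN1 had -0.37 and -2.64.

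The same held for other genes with unrelated roles. For FSTL1, the difference of NM2 from the other tumours was -1.01 at the bright probe set and -3.04 at the variable one. The membrane skeleton gene ADD3 gave -1.24 and -3.17, and SPTBN1, a spectrin, gave -1.14 and -2.68. The reductase gene CYB5R3 gave -0.67 and -2.55, and SERINC1 gave -0.46 and -2.56. SFRP2 was the only one of the 15 that was higher in NM2 at both probe sets. Over all 2303 genes with several probe sets of mean at least 8, these disagreed by at least 2 in NM2 for 38 genes (1.65%) and in any other tumour for at most 8. NM2 is the tumour with the truncated spike-in and the largest ACTB 3′ minus 5′ difference, and their part in this was not tested.

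**Figure D4:**
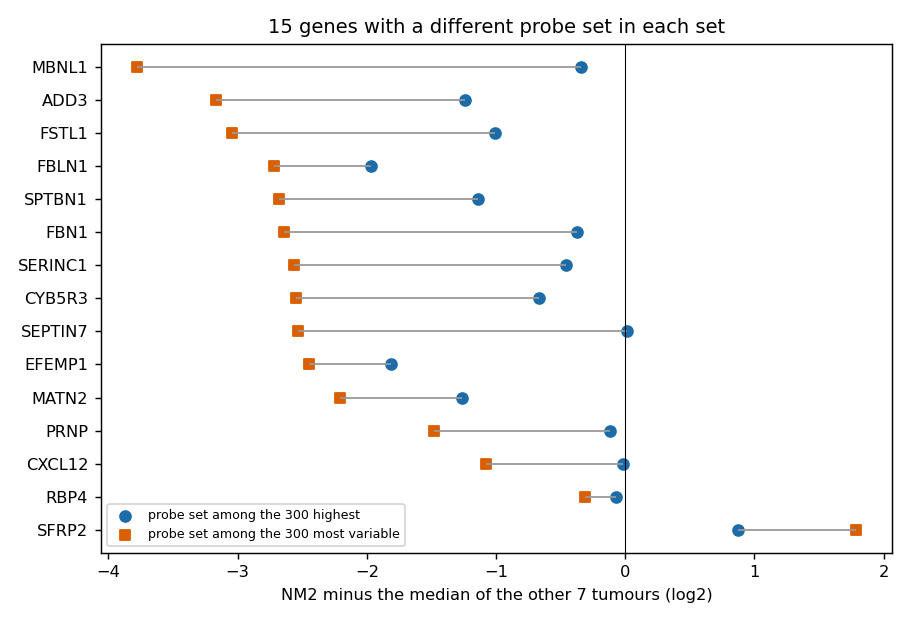
NM2 minus the median of the other 7 tumours (log2, horizontal axis) for 15 genes with different probe sets in the 2 sets, the bright probe set in blue and the variable one in orange, joined by a line. For 14 of the 15 genes the variable probe set lies further below the others in NM2, as for MBNL1 at -3.78 against -0.34.

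NM7 was singled out by a run of neighbouring genes, which were chosen after their values were seen. Of the 10 variable probe sets in which NM7 stood apart on the high side, 9 belonged to 8 genes that lie in 1 stretch of a chromosome, from CAND1 to RAB3IP in the RefSeq gene order of assembly UU_Cfam_GSD_1.0. The remaining probe set was that of IFI6. The stretch held 18 measured genes. At the brightest probe set of each, NM7 was at least 2 above the median of the other tumours for 10 of them (55.6%), against 0.695% of all 15115 named genes. These 10 included the 8 genes through which the stretch was found and bounded, and the others were FRS2 and SLC35E3. The share therefore follows largely from the choice of the stretch. For 0 of the 20 measured genes flanking it, 10 on each side, was NM7 even 1 above that median at the brightest probe set. At any probe set, 11 of the 18 genes passed the difference of 2, against 1.07% of all named genes, and so did 1 of the 20 flanking genes, the Wnt antagonist WIF1, with 2.51.

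MDM2, which marks the tumour suppressor p53 for degradation, lies in this stretch. It was 12.57 in NM7 and 10.12 in NM1, 9.91 in NM2, 10.25 in NM3, 10.70 in NM4, 10.55 in NM5, 10.40 in NM6 and 10.61 in NM8. NM7 was thus 2.17 above the median of the others, whose own range was under 1, and all 3 probe sets of the gene gave a difference of 2.17 to 2.86.

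The neighbours of MDM2 with the same pattern have varied roles. NM7 was higher by 3.47 in MDM1, by 3.27 in the nuclear pore gene NUP107, by 3.20 in RAB3IP, an activator of a Rab GTPase, and by 3.19 in YEATS4, a chromatin reader. It was higher by 2.86 in FRS2, an adaptor of fibroblast growth factor receptors, by 2.75 in SLC35E3, by 2.56 in CAND1, a regulator of ubiquitin ligases, by 2.16 in the small GTPase RAP1B and by 2.05 in the chaperonin subunit CCT2. DYRK2, a kinase, was higher by 1.48.

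Not every gene of the stretch followed. The splicing factor gene CPSF6 was 0.63 higher in NM7, and LYZ, the lysozyme gene of macrophages, had a difference of -1.26. IFNG, IL26, IL22, LRRC10 and BEST3 had differences between -0.30 and 0.34, and their values of 5.57 to 7.26 in NM7 were close to or within the range seen without target. The median difference over the 18 genes was 2.11 in NM7 and between -0.18 and 0.11 in each other tumour. The same 10 genes passed the difference of 2 after quantile normalization or with NM2 left out. RNA was measured here and DNA was not, so gene copy number in NM7 was not tested.

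**Figure D5:**
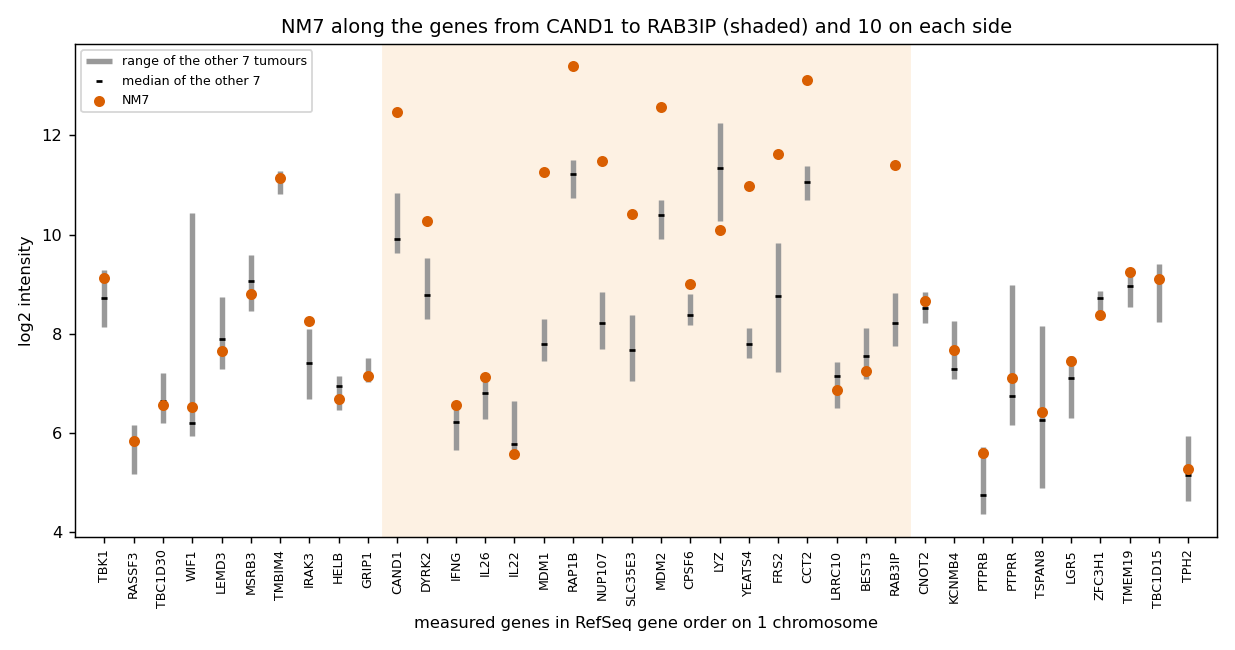
Log2 intensity (vertical axis) of NM7 (orange points) and of the other 7 tumours (grey range, black median) for genes in RefSeq order along 1 chromosome, each at its brightest probe set; the stretch from CAND1 to RAB3IP is shaded. NM7 lies at least 2 above the median of the others for 10 of the 18 shaded genes and for 0 of the 20 flanking genes. The shaded stretch was bounded by genes chosen for being high in NM7.

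At the threshold of the second set, the actin-binding protein gene ABLIM1 and the crystallin gene CRYGS were the last members inside, with SDs of 1.031 and 1.029, and PSAT1 and YWHAE lay just outside at 1.027 and 1.026.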

How the data were processed

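Total RNA of 13 untreated primary tumours was measured on an Affymetrix canine array, and the 8 non-metastatic samples were used. The authors deposited 1 table of values, read here as log2 intensities from their range. The summary software, background correction and normalization were not given in the sources used here. Values were used as deposited, and 59 exact zeros, none in either set, were kept. Gene names came from the supplied platform annotation. The identifiers of 27680 of 29254 named probe sets matched RefSeq (UU_Cfam_GSD_1.0), which also gave the gene order.

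Probe sets were ranked in Python 3.11.15 with pandas 2.3.3 and numpy 2.4.6. Samples without and with spike-in signal (3′ spike-in mean under or over 6) were compared with limma 3.58.1 (R 4.3.3), two-sided, with Benjamini-Hochberg adjustment over 42924 probe sets. The labels do not tie samples to separate dogs, so p-values reflect only the spread of these arrays, which may be technical. The number of arrays limits the precision. The fit was tested on simulated data. Plots used matplotlib 3.10.9.

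Members and 42 gene lists were chosen with earlier results of these data known. Named were the 20 genes of highest mean, the 25 of largest SD, up to 4 members of each list per set, the members just inside and outside each threshold, up to 5 genes most like each of the 3 most variable, and genes fixed by name, among which MKI67 had no value here. Other genes named were chosen after their values were seen. Alternatives covered normalization, the measure of spread, the mean required and left-out samples.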

Additional observations from a re-analysis of the deposited data

Results flagged for a closer look

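Of 182 genes named in the text, 29 had 1 tumour whose distance to the nearest other tumour exceeded Dixon's critical share of the whole range, at the brightest or the most variable probe set. Chance alone is set to flag about 5% of such groups, and many of these genes were chosen for their spread, so the number supports nothing.

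NM7 stood apart on the high side in genes of the stretch from CAND1 to RAB3IP. Its values were 12.48 and 11.83 in CAND1, 13.11 and 12.56 in CCT2, 12.57 and 12.25 in MDM2 and 13.39 and 11.79 in RAP1B, at the brightest and the most variable probe set. They were 11.27 in MDM1, 11.49 in NUP107, 11.41 in RAB3IP, 10.42 in SLC35E3 and 10.98 in YEATS4. Outside the stretch, NM7 was high in IFI6 at 11.56. It was low in CXCL12 at 9.83, HTRA1 at 11.14, S100A6 at 12.54 and LOC475080 at 12.62.

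NM2 stood apart on the high side in COMP at 12.04, in AQP1 at 12.01, in MYH11 at 10.29, in KRT1 at 8.54, in KRT10 at 8.16 and in COL14A1 at 10.73 and 10.71. It was low in FGFR2 at 7.87 and 5.85, in FSTL1 at 11.03 and 7.54 and in ROBO2 at 5.26. At the most variable probe set alone it was low in ADD3 at 7.26, CYB5R3 at 7.97 and FBN1 at 7.78. NM3 was low in LUM at 4.13 and in MT2A at 9.65. NM1 was high in WIF1 at 10.44.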

How the results depend on the processing

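Of the 300 brightest probe sets, 268 to 300 stayed under quantile normalization, the median, samples with or without spike-in signal alone, or without exact zeros, and 288 to 296 with 1 tumour left out. With 1 probe set a gene, 236 of the brightest and 232 of the most variable stayed. Of the 300 most variable, 288 stayed after quantile normalization and 263 by range, but 182 by median absolute deviation, 194 at a mean of at least 7, 144 at 9, and 125 with the highest sample of at least 8. With NM5 to NM8 alone 148 stayed, after centring by spike-in signal 179, and with 1 tumour left out 204 to 275. The spike-in comparison called 9311 probe sets, 7967 after quantile normalization, 9430 with limma-trend, 1760 of 11498 at a mean of at least 8, where fewer were tested, 6648 with NM2 among the spike-in samples, 0 with the ACTB covariate, and 5317 to 7955 with 1 sample left out. The cause of these falls was not tested. The direction of the stretch in NM7 was kept in the alternatives added after seeing the data. No paired analysis was possible because no contrast between the groups that share sample numbers was made. Values at or below 7.16 are not told apart from probe sets without target.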
